A study of Mus musculus with 4 samples.

Results

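The genes described here encode non-collagen components of the dermal matrix and a filament protein of fibroblasts: Dpt, Postn, Vim, Sparc, Dcn, Lum, Fn1 and Fbn1. They were chosen by symbol, and every probe set whose only annotated gene was one of these 8 symbols was taken. This gave 11 probe sets of 7 genes, out of 22626 probe sets besides the controls, of which those with a single symbol covered 12393 genes. Vim had 3 probe sets, Sparc and Fn1 had 2 each, and the others had 1. Fbn1, which encodes the microfibril protein fibrillin-1, is not analysed here. Of the 11 probe sets, 10 passed the filter on low values, with at least 1 for each of the 7 genes. Only the dimmer probe set of Fn1 did not pass.

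RNA from hair follicles was profiled on Affymetrix arrays of 1 colour. The follicles had been cut out of sections of dorsal skin under a microscope with a laser (laser capture microdissection). All mice were untreated males at postnatal day 14, N1 offspring of a Hos:HR-1 male, homozygous for the recessive HrHos allele of the hairless gene, and a +/HrHos female from a cross of HR-1 and ICR mice. The 2 heterozygous samples (+/HrHos, replicates 3 and 4) served as controls and have a coat like that of wild-type mice, while the 2 homozygous samples (HrHos/HrHos, replicates 2 and 3) carry no wild-type allele. The heterozygotes therefore carry 1 copy of the mutant allele too, and the genetic background of both groups is mixed. Each sample pooled 50 to 70 follicles, and the labels do not tie samples to animals, so p-values reflect only how far these samples spread, part of which may be technical.

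The labels of homozygous replicate 3 conflict. Its title has the prefix HR, read here as homozygous, where the titles of the heterozygous samples have the prefix WT. Its source name repeats that of the other homozygous sample, and by its strain field it would be heterozygous. It was grouped by title, and values without it or with it grouped as heterozygous are given beside each of the 7 genes.

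The dermis around a follicle is built by fibroblasts, which secrete collagens together with glycoproteins and proteoglycans that organise the fibres. Dermatopontin (Dpt) and the small leucine-rich proteoglycans decorin (Dcn) and lumican (Lum) bind collagen fibrils and shape their assembly. Fibronectin (Fn1) links cells to the matrix through integrins, and periostin (Postn) and Sparc are matricellular proteins, which modulate adhesion and matrix assembly. Vimentin (Vim) is the intermediate filament protein of fibroblasts and most other mesenchymal cells. Within the follicle such cells form the dermal papilla and the connective tissue sheath, and endothelial cells, leukocytes and pigment cells also make several of these proteins.

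Sequences upstream of Dpt, Postn and Vim are shown because these were the genes of the group whose homozygous values were both under the heterozygous ones, and that of Sparc because its probe sets disagreed. RefSeq windows (GRCm38.p6) from 250 bases before to 50 bases after the annotated start site were held for these 4 genes, with 2 windows for Postn. Each is printed 5′ to 3′ on the gene's strand, up to 30 bases past the start site, with the letters TATAAA in capitals. The positions are chr1:164796413-164796692 on the plus strand for Dpt, chr3:54360857-54361136 on the plus strand for the downstream window of Postn, chr2:13574061-13574340 on the plus strand for Vim and chr11:55420051-55420330 on the minus strand for Sparc.
Dpt: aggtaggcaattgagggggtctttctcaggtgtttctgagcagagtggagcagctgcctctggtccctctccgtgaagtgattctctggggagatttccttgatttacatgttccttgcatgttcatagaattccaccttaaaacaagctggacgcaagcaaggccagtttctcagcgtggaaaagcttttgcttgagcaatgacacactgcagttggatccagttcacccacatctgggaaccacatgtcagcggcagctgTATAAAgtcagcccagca
Postn: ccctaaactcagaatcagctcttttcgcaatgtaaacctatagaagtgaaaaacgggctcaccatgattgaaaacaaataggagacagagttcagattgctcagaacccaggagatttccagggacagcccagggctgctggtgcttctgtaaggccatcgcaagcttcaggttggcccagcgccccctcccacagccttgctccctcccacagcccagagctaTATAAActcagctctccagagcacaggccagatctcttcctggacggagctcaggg
Vim: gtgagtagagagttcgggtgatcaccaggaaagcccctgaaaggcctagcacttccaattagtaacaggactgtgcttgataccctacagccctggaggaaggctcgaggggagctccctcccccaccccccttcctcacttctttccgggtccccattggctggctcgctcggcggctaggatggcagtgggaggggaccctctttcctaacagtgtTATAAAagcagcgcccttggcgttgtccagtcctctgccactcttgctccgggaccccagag
Sparc: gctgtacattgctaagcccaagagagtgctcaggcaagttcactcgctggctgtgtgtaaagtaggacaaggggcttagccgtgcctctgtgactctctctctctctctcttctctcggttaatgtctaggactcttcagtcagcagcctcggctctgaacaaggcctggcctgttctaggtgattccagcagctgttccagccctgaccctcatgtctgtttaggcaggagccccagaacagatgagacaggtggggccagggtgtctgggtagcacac

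The TATAAA match, the core letters of a TATA box, began 26 bases before the start site in this window of Postn, 32 bases before it in Vim and 12 bases after it in Dpt. The windows of Sparc and the upstream window of Postn held no such match on either strand. Of 32817 windows of the same length, 13.6% held TATAAA on either strand and 8.32% on the gene's own strand. The other motifs searched on both strands were CANNTG (an E-box, in 72.3% of windows), CCAAT (37.4%), CATTCC (14.7%) and TGANTCA (an AP-1 site, 7.81%). CANNTG, which reads the same on both strands, matched at 7 positions in Dpt and 3 in Sparc, and at 0 in Vim and in both windows of Postn. CCAAT matched at 2 positions in Vim and 1 in the upstream window of Postn, while CATTCC and TGANTCA matched at 0 in all 5 windows. None of these matches overlapped the TATAAA match. A match describes letters in this window only.

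The genes did not share a single pattern. Dpt, Postn and Vim were lower in both homozygous samples than in both heterozygous samples, by 3.38-fold, 2.47-fold and 2.29-fold on the log2(intensity + 32) scale, whereas the samples of Dcn, Lum, Fn1 and Sparc overlapped between genotypes. None of the 10 fitted probe sets passed a limma adjusted p of 0.05, and 0 of 13576 probe sets passed over the whole table (0%). By the brightest probe set of each gene, 3 of 7 genes had both homozygous samples below both heterozygous samples and 0 of 7 had both above, against 13.4% and 13.8% of the 8557 genes with a kept probe set. Of the 11 probe sets, 5 had both homozygous samples below and 0 had both above, against 13.3% and 13.6% of all 13576 kept probe sets. At an unadjusted limma p under 0.05 there were 3 of the 10 fitted probe sets, the brightest of Dpt, Postn and Vim, all of them lower in homozygous samples. Over all kept probe sets 2.3% had such a p in either direction and 1.03% had it with a lower homozygous level. The median log2 difference of the 7 genes, homozygous minus heterozygous, was -0.22, against 0.01 over all kept probe sets, and 5 of 7 lay below 0, against 48.3% of all kept probe sets. These 3 genes were already known to be low when the group was chosen, so the counts describe it and do not test it.

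**Figure D1:**
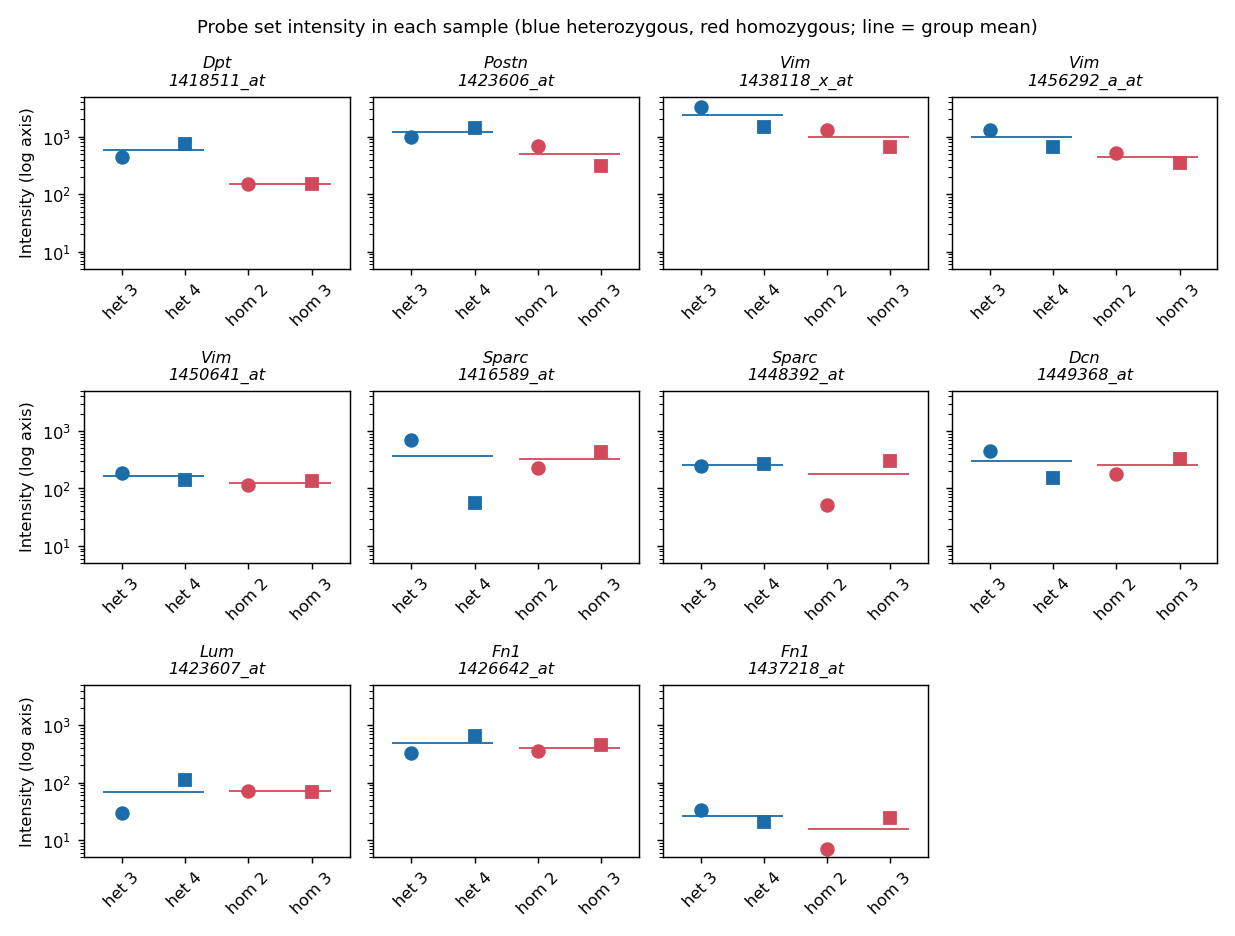
Intensity of each of the 11 probe sets (log axis) in heterozygous replicates 3 and 4 (blue) and homozygous replicates 2 and 3 (red), with a line at each group's mean. The red points lie below both blue points for Dpt, Postn and all 3 Vim probe sets, while the points of Sparc, Dcn, Lum and Fn1 overlap.

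Dpt had the widest gap between genotypes among these genes. Its intensity was 440.2 in heterozygous replicate 3, 755 in heterozygous replicate 4, 149 in homozygous replicate 2 and 148 in homozygous replicate 3. Values of the other genes follow this order. The homozygous samples were nearly equal, and the heterozygous samples, 1.67-fold apart, both lay well above them. Homozygous minus heterozygous, the difference was -1.76 ± 0.46 log2 units (SE, n = 2 per group), with a 95% interval from -2.77 to -0.75. Standard errors and intervals here and below are those of limma, which borrow variance from other probe sets. They do not rest on the values of 1 probe set alone. Its unadjusted limma p was 0.00290, and its limma adjusted p over all probe sets was 1.00. Among the alternatives the difference ranged from -2.12 without heterozygous replicate 3 (limma adjusted p = 0.0676) to -1.17 with homozygous replicate 3 grouped as heterozygous. Without homozygous replicate 3 it was -1.75.

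Postn, the periostin gene, had intensities of 1003 and 1446 (heterozygous) and of 697 and 313 (homozygous). Both homozygous values were the lower ones, but they lay 2.11-fold apart, further than the heterozygous pair at 1.43-fold. The difference was -1.30 ± 0.52 log2 units (SE, n = 2 per group), with a 95% interval from -2.44 to -0.16 and a limma adjusted p of 1.00. It was smaller when the sample whose labels conflict was removed or regrouped. It was -0.76 without homozygous replicate 3 and -0.15 with that sample counted as heterozygous, against -1.84 without homozygous replicate 2.

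The 3 probe sets of Vim all lay below 0, by unequal amounts. The brightest had intensities of 3297 and 1470.2 (heterozygous) and of 1332 and 669 (homozygous). Heterozygous replicate 4 and homozygous replicate 2 were thus close to each other, between a high heterozygous and a low homozygous sample. Its difference was -1.19 ± 0.53 log2 units (SE, n = 2 per group), with a 95% interval from -2.37 to -0.02.

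A second Vim probe set, designed from the same sequence record and so not independent of the first, had intensities of 1331 and 671 against 521 and 354.5 and differed by -1.08 ± 0.51. Its difference was -0.82 without homozygous replicate 3 and -0.38 with it grouped as heterozygous. The third, from another record, had 188 and 142 against 114 and 137 and differed by -0.32 ± 0.39, with -0.42 and -0.35 under the same 2 changes. The 3 probe sets thus put the samples of the 2 genotypes on the same sides but differ in size, and the third placed homozygous replicate 3 above homozygous replicate 2, the reverse of the first 2. The brightest probe set is of a type that can bind several related transcripts (suffix _x_at). Its difference was -0.62 without heterozygous replicate 3, -0.71 without homozygous replicate 3 and -0.16 with homozygous replicate 3 grouped as heterozygous.

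**Figure D2:**
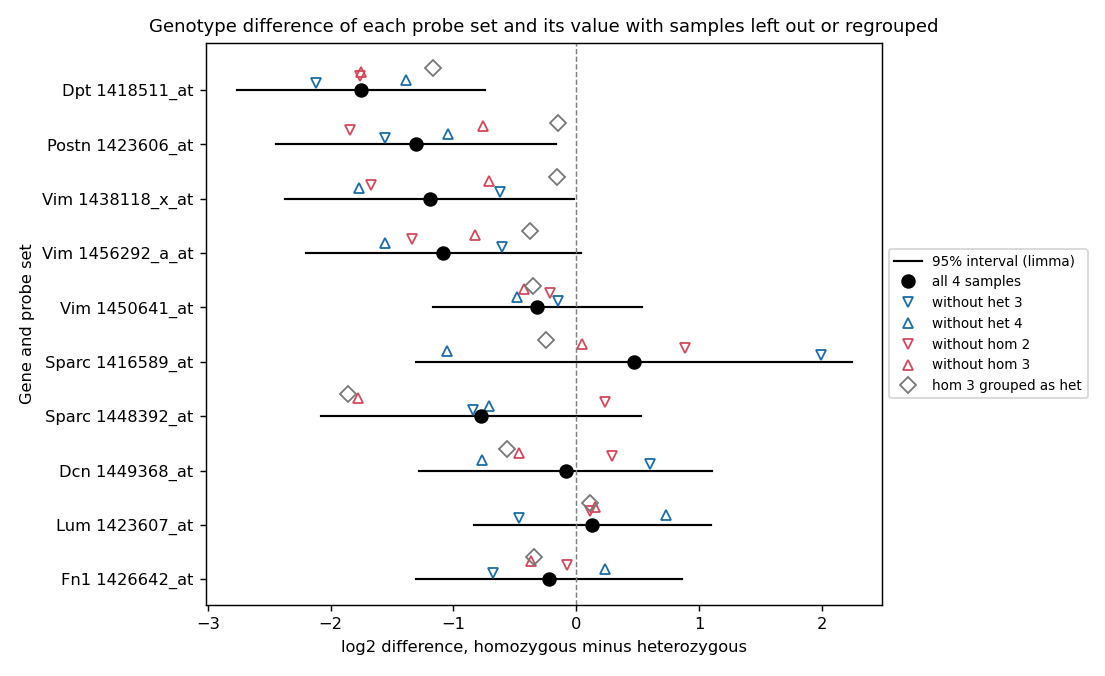
Log2 difference (homozygous minus heterozygous) of the 10 fitted probe sets with all 4 samples (black circle) and its 95% limma interval (line), and with 1 sample left out (triangles) or homozygous replicate 3 grouped as heterozygous (diamonds). The values of Dpt, Postn and the 3 Vim probe sets stay below 0 in every case drawn, and those of Sparc, Dcn, Lum and Fn1 lie on both sides of 0.

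Sparc is the gene whose probe sets disagreed, although both were designed from the same sequence record. The brighter one had intensities of 687 and 55 (heterozygous) and of 227 and 429.7 (homozygous). The heterozygous pair was 8.26-fold apart on the log2(intensity + 32) scale and enclosed both homozygous samples. The difference was 0.47 ± 0.80 log2 units (SE, n = 2 per group), with the largest error of the 10 fitted probe sets and a 95% interval from -1.31 to 2.24. It ranged from 1.99 without heterozygous replicate 3 (limma adjusted p = 0.0867) to -1.06 without heterozygous replicate 4. Without homozygous replicate 3 it was 0.051, and with that sample grouped as heterozygous it was -0.24.

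The dimmer Sparc probe set had intensities of 243 and 269 against 51.8 and 306 and differed by -0.77 ± 0.59. Here the heterozygous samples lay close together and homozygous replicate 2 stood apart at the low end. Without that sample the difference was 0.23, and without homozygous replicate 3 it was -1.78, or -1.86 with that sample grouped as heterozygous. The low sample was heterozygous replicate 4 by one probe set and homozygous replicate 2 by the other, so the 2 probe sets give no common order of the samples.

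Dcn and Lum, the genes of decorin and lumican, are neighbours on mouse chromosome 10, with 0 genes annotated between them in RefSeq (GRCm38.p6). Dcn had intensities of 442 and 151 (heterozygous) and of 181 and 329.7 (homozygous). The heterozygous values formed both ends of its range, and the difference was -0.09 ± 0.54 log2 units (SE, n = 2 per group), with a 95% interval from -1.28 to 1.11. Lum had intensities of 29.8 and 110.3 (heterozygous) and of 72.2 and 69.3 (homozygous). It differed by 0.13 ± 0.44 log2 units, with a 95% interval from -0.83 to 1.10. Its range too was set by the heterozygous samples, but in the opposite order. Heterozygous replicate 3 was the highest sample for Dcn and the lowest for Lum. Lum was dim, with a mean above that of only 32.2% of kept probe sets, so its differences are understated by the added 32. Without homozygous replicate 3 the difference was -0.47 for Dcn and 0.15 for Lum, and with that sample grouped as heterozygous it was -0.56 for Dcn and 0.11 for Lum. Without heterozygous replicate 3 the sign of both turned, with 0.60 for Dcn and -0.47 for Lum. Without heterozygous replicate 4 Dcn was -0.77 and Lum 0.73.

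Fn1, the fibronectin gene, had intensities of 334 and 659 (heterozygous) and of 358 and 445 (homozygous). Both homozygous samples fell inside the heterozygous range. The difference was -0.22 ± 0.49 log2 units (SE, n = 2 per group), with a 95% interval from -1.30 to 0.86, and it turned to 0.24 without heterozygous replicate 4. It was -0.37 without homozygous replicate 3 and -0.34 with that sample grouped as heterozygous. The dimmer Fn1 probe set read 33 and 20.6 against 7 and 24.2, near the bottom of the scale. It was left out by the filter, and in the fit without a filter its difference was -0.32 ± 0.31. The intervals of Dcn, Lum and Fn1 reach at least 0.83 (log2) to either side, so changes of about that size in either direction could not be told from none with these arrays.

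**Figure D3:**
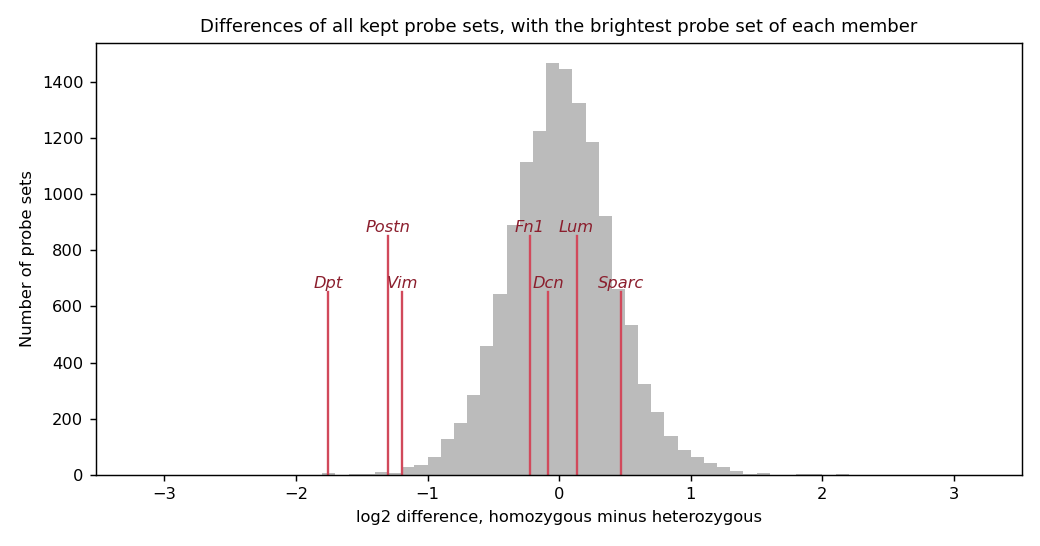
Distribution of the log2 difference (homozygous minus heterozygous) over the 13576 kept probe sets (grey bars, 0.1 wide), with red lines at the brightest probe set of each of the 7 genes. Dpt (-1.76), Postn (-1.30) and Vim (-1.19) lie in the sparse left tail, and Fn1, Dcn, Lum and Sparc lie within the bulk.

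The heterozygous samples differed from each other in 2 directions. Heterozygous replicate 4 read higher than replicate 3 for Dpt, Postn, Lum and Fn1, and lower for Vim, Sparc and Dcn by their brightest probe sets. Each of the 7 genes had its highest value in a heterozygous sample, 3 in replicate 3 and 4 in replicate 4. The lowest value lay in homozygous replicate 3 for 3 genes (Dpt, Postn and Vim) and in a heterozygous sample for the other 4. For 5 of the 11 probe sets the heterozygous pair lay further apart than the genotype means, as it did for 69.6% of all kept probe sets. Over the 7 genes the root mean square log2 difference between samples was 1.49 within the heterozygous pair and 0.70 within the homozygous pair, and between genotypes it ran from 1.06 to 1.58. Over the 8557 genes with a kept probe set the same distances were 0.76, 0.57 and from 0.58 to 0.67. In these 7 genes the control pair was thus further apart than 3 of the 4 pairs of different genotype, and over the 8557 genes than each of them. Sparc weighs heavily in the distance of the 7 genes. Between heterozygous replicates 3 and 4 its brighter probe set, used here, differed by -3.05 (log2), and its dimmer one by 0.13.

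The label of the group was checked against other fibroblast genes. Of 14 defining markers 12 had a kept probe set, and the lowest intensity among them was 8.6 (Cd34 in homozygous replicate 2), so none was listed at 0. The surface marker gene Thy1 read 357 and 296 against 266.5 and 185, and the growth factor receptor gene Pdgfra read 197 and 341 against 297 and 145. Dpp4 read 210 and 578 against 152 and 467.5 (-0.34 ± 0.60), with overlapping samples, and another probe set of it differed by 0.15. The summed intensity of the 12 markers was 7572 to 8668 on the heterozygous arrays against 4690.2 to 5915. Most of each sum came from the collagen genes Col1a1, Col1a2 and Col3a1, which are also in the collagen list. Of the 12, 10 lay below 0, against 48.3% of all kept probe sets, and 0 passed limma. The 2 above 0 were S100a4 (0.27 ± 0.45) and Prrx1 (0.21 ± 0.40). In 5 of the 12 both homozygous values were under both heterozygous ones, against 13.4% of the 8557 genes, and in 0 they were over them. The median log2 difference was -0.51, or -0.28 without homozygous replicate 2 and -0.21 with homozygous replicate 3 grouped as heterozygous. Col1a1, Col1a2 and Col3a1, the chains of the main fibrillar collagens of dermis, differed by -0.53 ± 0.47, -0.54 ± 0.56 and -0.85 ± 0.39. In such pooled follicles, fewer fibroblasts, less RNA per fibroblast and the array and tissue differences described further below cannot be told apart.

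Several other proteoglycans had lower values in homozygous samples, without passing the test. Their list holds small leucine-rich proteoglycans, the family of Dcn and Lum, and also large and basement membrane proteoglycans, which are not of that family. Of 9 measured, 7 lay below 0 and 0 passed limma, with a median log2 difference of -0.63. In 4 of the 9 both homozygous values were under both heterozygous ones, against 13.4% of the 8557 genes, and in 1 (Hspg2) they were over them, against 13.8%. Bgn, the gene of the fibril-binding proteoglycan biglycan, had 942.5 and 885.5 against 356 and 676, and differed by -0.85 ± 0.49 log2 units. Vcan, the gene of the large proteoglycan versican and a dermal papilla marker, read 185.5 and 201 against 55.9 and 137 (-0.88 ± 0.42). The 9 dermal papilla markers measured, Vcan among them, had a median of -0.05, with 4 above 0, 5 below and 0 called. Both homozygous values were over both heterozygous ones in 3 of these 9 markers, and under them in 1, Vcan. Ogn (osteoglycin) differed by -0.74 ± 0.50 with overlapping samples. Hspg2, the gene of the basement membrane proteoglycan perlecan, differed by 0.48 ± 0.43, though another probe set of it read -0.56. The median of the 9 proteoglycans was -0.04 without homozygous replicate 3 and -0.03 with that sample grouped as heterozygous.

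The 12 fibrillar and associated dermal collagens, Col1a1, Col1a2 and Col3a1 among them, had a median log2 difference of -0.58. Of these, 10 lay below 0, 2 above, and 0 were called. In 5 of the 12 both homozygous values were under both heterozygous ones, against 13.4% of the 8557 genes, and in 0 over them. The median was -0.18 without heterozygous replicate 3 and -0.31 with homozygous replicate 3 grouped as heterozygous. The remaining parts of the matrix had medians nearer to 0. The 11 microfibril and elastic fibre genes had a median log2 difference of -0.03, with 5 above 0, 6 below and 0 called. Among them Efemp1, encoding a fibulin, read 598 and 311 against 288 and 114.5 (-1.10 ± 0.53), and Eln, the elastin gene, differed by -0.49 ± 0.38. Ltbp3, which encodes a binding protein of latent TGF-beta, differed by 0.10 ± 0.54, though another probe set read -0.07, and Lox, the crosslinking enzyme lysyl oxidase, by 0.50 ± 0.46. The 16 other matricellular and adhesive glycoproteins had a median of -0.09, with 12 below 0 and 0 called. Ccn2 (connective tissue growth factor), Igfbp7 and Matn2 (matrilin-2) differed by -0.08 ± 0.45, -0.41 ± 0.46 and -0.50 ± 0.41. Fstl1, the follistatin-like gene, differed by 0.10 ± 0.58, with another probe set at -0.30.

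The 16 genes that process, crosslink or degrade matrix had a median of 0.0030, with 8 above 0, 8 below and 0 called. The chaperone and folding genes P4hb and Ppib differed by 0.12 ± 0.42 and 0.02 ± 0.44, and the gelatinase gene Mmp2 by -0.24 ± 0.46. The 14 matrix receptors, which bind fibronectin, periostin, collagen and other ligands, had a median of 0.04 with 0 called. Itgav, the alpha chain of integrins that bind fibronectin and periostin, read 5252 and 7802 against 5190.1 and 3537 (-0.58 ± 0.36), and Sdc4, a syndecan that binds fibronectin, differed by 0.61 ± 0.49. Of the 5 other filament genes related to Vim, Plec, which encodes the linker plectin, differed by 0.10 ± 0.49 and Nes (nestin) by 0.19 ± 0.36, and 0 were called. Among the 7 mesenchymal transcription regulators 5 lay below 0, with a median of -0.25 and 0 called. That median took either sign with a heterozygous sample left out, at -0.61 without replicate 3 and 0.23 without replicate 4. Twist2, a regulator active in dermal fibroblasts, had an intensity of 146 in both heterozygous samples against 96.7 and 63.8 (-0.68 ± 0.37). Over the alternatives the medians nearest to 0 also took both signs, from -0.26 to 0.097 for the microfibril genes, -0.24 to 0.024 for the glycoproteins, -0.24 to 0.12 for the processing genes and -0.16 to 0.21 for the receptors.

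**Figure D4:**
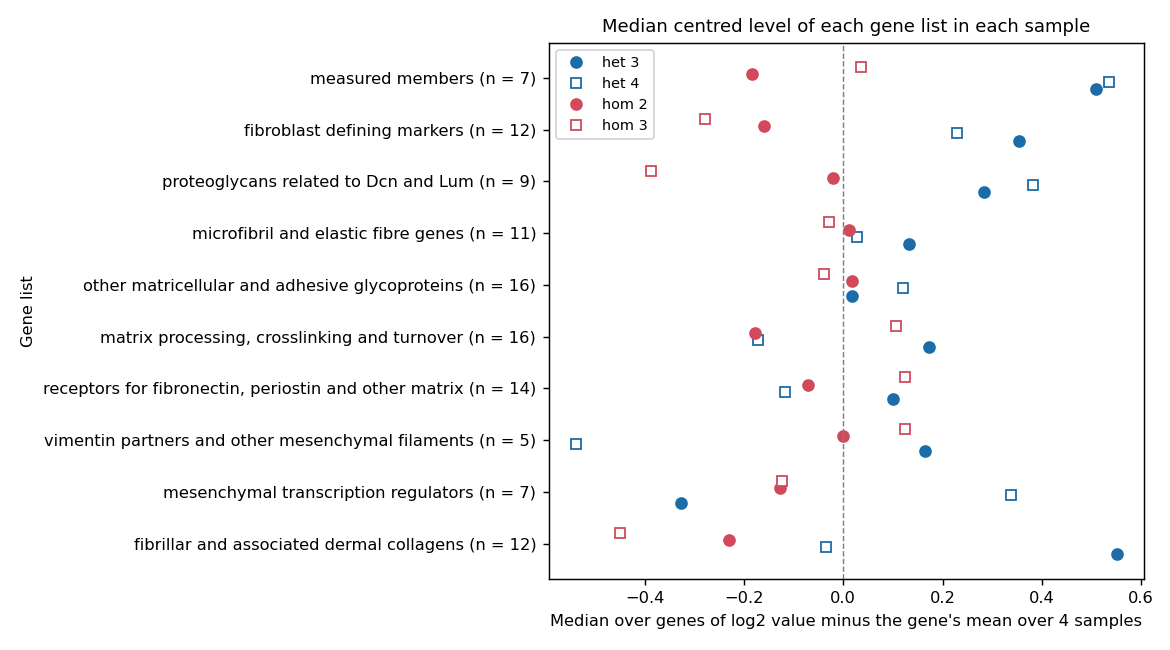
For each gene list, the median over its genes of the log2 value minus the gene's mean over the 4 samples, in heterozygous (blue) and homozygous (red) samples. For the 7 genes described here the blue points sit at 0.51 and 0.54 and the red points at -0.18 and 0.03. The fibroblast markers, the proteoglycans and the collagens also keep blue to the right of red. So do the microfibril and elastic fibre genes, narrowly (0.133 and 0.028 against 0.011 and -0.030). The remaining lists, such as the matrix processing genes and receptors, do not.

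By its centred values the mean profile of the 7 genes was 0.44 and 0.13 (heterozygous) and -0.27 and -0.30 (homozygous). The 5 genes closest to this profile over the 4 samples were Rars2, Rbm19, Plpbp, Emc4 and Cdkn1b, at a root mean square distance of 0.031, 0.034, 0.042, 0.0497 and 0.054 (log2), against a median of 0.44 over 8550 other genes. The members themselves lay further from their own mean, from 0.48 for Fn1 to 1.14 for Sparc. The mean profile therefore describes no single member well.

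Some other measures also parted the genotypes, in the direction of Dpt, Postn and Vim or in the opposite one, and others overlapped. The 9 hybridization spike-ins, bacterial and phage transcripts added to each sample to check the array, had lower values on both homozygous arrays than on both heterozygous arrays in 9 of 9 cases, with a mean difference of -1.10 (log2). Shorter transcripts raise the signal at the 3′ end of Gapdh over that at its middle, and this ratio was 17.2 and 30.1 on the heterozygous arrays against 15.4 and 14.8. For Actb the ratio overlapped between genotypes, at 42.15 and 11.3 against 45.9 and 33.7, and its lowest value was on the array of heterozygous replicate 4, where the Gapdh ratio was highest. Adipocyte markers lay below 0 in 9 of 9 measured genes, with summed intensities of 13036 to 13838 against 6262.5 to 10519, and hair shaft keratins lay above 0 in 10 of 10, with 10039 to 10438.5 against 15296 to 18094. Both homozygous values were under both heterozygous ones in 3 of the 9 adipocyte genes, against 13.4% of the 8557 genes. They were over them in 5 of the 10 keratins, against 13.8%. No gene of either list was listed at 0. Endothelial and leukocyte markers, whose cells also make vimentin, Sparc and fibronectin, had medians of -0.0048 and 0.07, and their defining genes Pecam1 and Ptprc were below the filter. Smooth muscle and pericyte markers lay below 0 in 3 of 5 measured genes, with a median of -0.36 and summed intensities of 1723 to 2650 against 1626 to 1628. Schwann cell and nerve markers lay below 0 in 5 of 6, with a median of -0.29 and 960.4 to 1099 against 614 to 750.5. Melanocyte markers lay above 0 in 8 of 9, with a median of 0.70 and 1933 to 4474.5 against 4011 to 7477, so their sums overlapped. The part of any of these in the differences was not tested.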

How the data were processed

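Biotin-labelled cRNA from amplified RNA of laser-captured follicles was hybridised to 1-colour Affymetrix arrays, per the labels' protocols. The authors deposited intensities per probe set on a linear scale. From the values, they had scaled each array to a common trimmed mean of 165, and the software and background step are not stated in the labels. They were analysed as log2(intensity + 32), which understates differences of dim probe sets. The authors' scaling was kept. Control probe sets (64 of 22690) were dropped, and of the rest the brightest 60% by mean log2 value (13576) entered the fit. Genes were named from the platform annotation, in which 20380 probe sets had 1 symbol, 691 several and 1555 none. Several or no symbol means unnamed here.

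All kept probe sets were fitted with limma 3.58.1 in R 4.3.3 (lmFit, eBayes with trend, two-sided, residual degrees of freedom 2, Benjamini-Hochberg adjustment over all of them), 2 samples against 2. Standard errors, intervals and p-values are moderated by eBayes, with prior degrees of freedom of 8.64 added to the residual 2. Whether an interval excludes 0 thus depends on this borrowed variance. An exact permutation test of 2 against 2 cannot go below p = 0.333. On simulated data with planted changes, the fit was checked only for whether its mean estimates matched the planted sizes. Array medians were 43.5 to 52.6. Arrays have no read depth, and their number limits precision: the median 95% interval reached 0.93 (log2) to either side.

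A gene is represented by its probe set with the highest mean. Members, lists and tests were chosen with earlier results of these data known. All probe sets of the members are named; from each list the named genes come from the 4 with the highest mean, and 5 more are the closest in profile. Cd34, Thy1, Pdgfra, S100a4 and Prrx1, and Pecam1 and Ptprc, fall outside this rule. Alternatives covered the pseudocount, floor, scaling, filter, eBayes options, probe set summary, grouping and each sample left out. Promoter windows are from RefSeq.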

Additional observations from a re-analysis of the deposited data

How the results depend on the processing

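With all 4 samples limma called 0 of 13576 probe sets, with 312 at an unadjusted p under 0.05. Without heterozygous replicate 3, where replicate 4 is assumed to vary like the homozygous pair, 51 were called, none of them a probe set of these genes. Leaving out any other sample gave 0. The number of calls thus ran from 0 to 51 with a sample left out, and 0 member probe sets were called under any alternative. The median log2 difference of the genes was below 0 in each of the 11 alternatives that moved it. It ran from -1.05 (without heterozygous replicate 4) to -0.076 (without homozygous replicate 2), with -0.62 without heterozygous replicate 3 and -0.47 without homozygous replicate 3. It was -0.71 with the 40% brightest probe sets kept, which drops Lum. With a sample left out, the brighter Sparc probe set ran from -1.06 to 1.99, the dimmer one from -1.78 to 0.23, Dcn from -0.77 to 0.60, Lum from -0.47 to 0.73 and Fn1 from -0.68 to 0.24, so these 5 took both signs. The brighter Sparc probe set was also -0.24 with homozygous replicate 3 grouped as heterozygous. Dpt, Postn and the 3 Vim probe sets kept their sign in the 10 alternatives that moved their differences (each sample left out, the regrouping, and other pseudocounts, floor and scalings). Of 135 alternative medians of the related lists and the fibroblast markers, which include settings that cannot move a median, 114 moved by less than the spread between samples and 21 by more. Those of the fibroblast markers were added after seeing the data.

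No paired analysis was possible because the 2 genotypes share only replicate number 3.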
